A study of Mus musculus with 4 samples.

Results

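Inhibitory checkpoint receptors are surface proteins that dampen the activity of lymphocytes when they bind ligands on other cells. The 8 genes described here are Pdcd1, Ctla4, Lag3, Havcr2, Tigit, Cd96, Btla and Cd160, and the regions described are the accessible chromatin regions that had 1 of them as the nearest protein-coding gene. There were 87 such regions among 91266 in the whole series. Of the 87, 49 lay in the gene or within 10 kb of it and 38 lay farther away. The authors' up list held 12 of the 87 and their down list held 0.

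The regions come from ATAC-seq, which marks open chromatin by the insertion of sequencing adapters, in natural killer (NK) cells, which are innate cytotoxic lymphocytes, from the spleens of wild-type C57BL/6 mice. The cells had been cultured for 72 h with a high dose (2 samples) or a low dose (2 samples) of interleukin-15, the cytokine that maintains NK cells, and the labels give neither concentration. About 75000 cells entered each replicate. All 4 samples share strain, genotype and time, so that dose is the only difference the labels name, and each dose is represented by cultured cells that had received the cytokine. The 3 tables analysed hold positions for the series as a whole and no value per sample, so neither the depth nor the spread between replicates is known, and the authors' calls were not retested. Which dose served as the reference for up and down is not stated in the sources used here. The lists are therefore named as the authors named them, and nothing below assigns either of them to a dose.

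PD-1 (Pdcd1) and CTLA-4 (Ctla4) belong to the CD28 family and restrain lymphocytes through phosphatases or by competing for CD80 and CD86. LAG-3 binds MHC class II molecules, and TIM-3, the product of Havcr2, binds galectin-9 among other ligands. TIGIT and CD96 bind the poliovirus receptor CD155 in competition with the activating receptor CD226 on NK cells. BTLA and CD160 bind the herpesvirus entry mediator, encoded by Tnfrsf14.

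The starts of these genes are shown first, because the only listed region that covered a start was that of Havcr2. RefSeq start sites of assembly GRCm38.p6 were matched for 7 of the 8 genes, all except Lag3. Cd160 had 2 annotated starts. A region covered a start in 6 of the 7 genes, and 1 of these 6 regions was in the up list. Over the whole series, 1.06% of the 10236 regions that cover a RefSeq start were in the up list. The 250 bases before the start are given below for the 5 genes whose start lay in a region and whose sequence held the RUNX letters. They read 5′ to 3′ along the gene, and capitals mark every match to a searched motif.

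Havcr2, chr11:46454681-46454930, plus strand: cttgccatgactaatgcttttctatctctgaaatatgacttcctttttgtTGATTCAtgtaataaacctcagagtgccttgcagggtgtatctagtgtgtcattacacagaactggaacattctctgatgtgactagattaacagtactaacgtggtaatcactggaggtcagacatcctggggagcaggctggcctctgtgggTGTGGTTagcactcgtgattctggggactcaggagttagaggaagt

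Tigit, chr16:43664185-43664434, minus strand: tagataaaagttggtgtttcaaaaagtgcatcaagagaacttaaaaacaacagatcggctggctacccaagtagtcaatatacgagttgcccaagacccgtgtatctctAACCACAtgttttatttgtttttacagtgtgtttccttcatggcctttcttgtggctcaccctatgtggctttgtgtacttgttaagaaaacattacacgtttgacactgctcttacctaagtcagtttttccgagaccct

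Cd96, chr16:46120249-46120498, minus strand: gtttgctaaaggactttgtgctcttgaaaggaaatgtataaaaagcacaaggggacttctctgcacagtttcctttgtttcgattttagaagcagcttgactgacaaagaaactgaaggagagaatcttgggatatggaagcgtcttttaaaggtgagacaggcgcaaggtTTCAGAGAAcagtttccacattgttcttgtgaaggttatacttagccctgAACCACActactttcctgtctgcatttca

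Btla, chr16:45224087-45224336, plus strand: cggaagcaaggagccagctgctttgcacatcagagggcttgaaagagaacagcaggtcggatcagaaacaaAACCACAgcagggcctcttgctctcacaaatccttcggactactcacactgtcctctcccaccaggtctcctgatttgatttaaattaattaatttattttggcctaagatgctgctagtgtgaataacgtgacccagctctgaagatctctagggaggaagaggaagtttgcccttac

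Cd160 (the start within the gene), chr3:96814522-96814771, minus strand: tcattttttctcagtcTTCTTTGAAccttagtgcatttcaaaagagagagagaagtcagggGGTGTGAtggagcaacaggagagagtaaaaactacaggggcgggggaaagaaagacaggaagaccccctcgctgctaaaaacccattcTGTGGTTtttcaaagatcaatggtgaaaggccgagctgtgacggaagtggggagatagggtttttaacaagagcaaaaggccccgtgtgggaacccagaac

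Motifs were searched as fixed letters on both strands. They were STAT (TTCNNNGAA), T-box (TCACACC), RUNX (TGTGGTT), AP-1 (TGANTCA), NFAT (GGAAAAT), E-box (CACCTG) and the ISRE core, which is GAAA, any 2 bases and GAAA again. The STAT and AP-1 letters read the same on both strands, and none of the matches overlapped another. The RUNX letters stood in 6 of the 8 windows, from 5 of the 7 genes, against 4.40% of all 32851 windows. Among windows whose start lay in an accessible region, they stood in 5 of the 6 here, against 3.59% of all 13081. RUNX factors are transcription factors of lymphocyte development. In Havcr2 the RUNX match lay 46 to 40 bases before the start, and an AP-1 match, of a kind found in 6.75% of all windows, lay 200 to 194 bases before it. The RUNX match lay 141 to 135 bases before the start in Tigit, 29 to 23 in Cd96, 179 to 173 in Btla and 101 to 95 at the inner start of Cd160, the start inside the gene. STAT letters, the class of site bound by factors downstream of interleukin-15, were in the windows of Cd96 (79 to 71 bases before the start) and of the inner start of Cd160 (234 to 226 bases), against 7.02% of all windows. The inner Cd160 window also held the T-box letters 189 to 183 bases before the start, against 3.33% of all windows. The window of Ctla4 held no RUNX letters. It held the NFAT letters, found in 4.16% of all windows, and the E-box letters, found in 17.2%. The E-box letters were also in the window of the outer start of Cd160, 53 to 48 bases before it, where the RUNX match lay 77 to 71 bases before the start. The window of Pdcd1 held none of the 7 motifs. The ISRE core was in none of the 8 windows. A match is a description of these letters and not a binding site, and the windows of Cd160 share a gene.

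The count of listed regions was then set beside the series as a whole. Up regions were 13.8% of the 87, against 4.21% of all regions. Within 10 kb, 5 of 49 regions (10.2%) were up, against 3.60% of all regions within 10 kb of a gene. Beyond 10 kb, 7 of 38 (18.4%) were up, against 6.02% of all regions beyond 10 kb. The far count fell to 2 of 13 without Pdcd1, and to 1 up region when genes of any biotype could be the nearest gene. If the regions had been listed at the share of all regions of the same width class and distance class, 2.17 of the 49 and 2.49 of the 38 would have been up. No region was down within 10 kb, where 1.30% of all regions were, and none beyond, where 1.69% were. Over all distances 1.40% of regions were down, which comes to 1.22 of 87 regions. At the shares of regions of the same width and distance classes it came to 1.49, so that a count of 0 lies close to either background. The up regions were concentrated in few genes. Havcr2 and Pdcd1 held 8 of the 12, and without Havcr2 the share within 10 kb was 2 of 41 (4.88%). Regions of a gene are neighbours and are not independent.

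By gene, 5 of the 8 had an up region at any distance, namely Pdcd1, Ctla4, Lag3, Havcr2 and Tigit, and Cd96, Btla and Cd160 had none. For Pdcd1 and Tigit these lay only beyond 10 kb. The share of all genes with an up region at any distance was not computed. Within 10 kb, 3 of the 8 had an up region (Ctla4, Lag3 and Havcr2), whereas 11.8% of the 15764 protein-coding genes with a region within 10 kb did. The corresponding share for down regions was 4.39%, and 0 of the 8 genes had one. These shares are not like for like, because each of the 8 had more regions within 10 kb than 61.7 to 90.2% of all protein-coding genes placed, those with none included. Among genes with the same number of such regions, the share with an up region ran from 9.65% at the number of Cd160 to 23.5% at that of Havcr2, Tigit and Cd96. Summed over the 8, those shares come to 1.53 genes with an up region and 0.559 with a down region, against counts of 3 and 0. The genes differed in how many regions they had nearby. Havcr2, Tigit and Cd96 had 8 each, Pdcd1 7, Ctla4 6, Lag3 5, Btla 4 and Cd160 3. Per 10 kb of gene and flanks, Ctla4 (2.24) and Pdcd1 (2.04) had the most regions. Btla (0.813), Cd96 (0.765) and Cd160 (0.593) had the fewest. The flanks entered at full length while regions in them nearer to another gene were not counted, which lowers the values of genes with close neighbours.

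**Figure D1:**
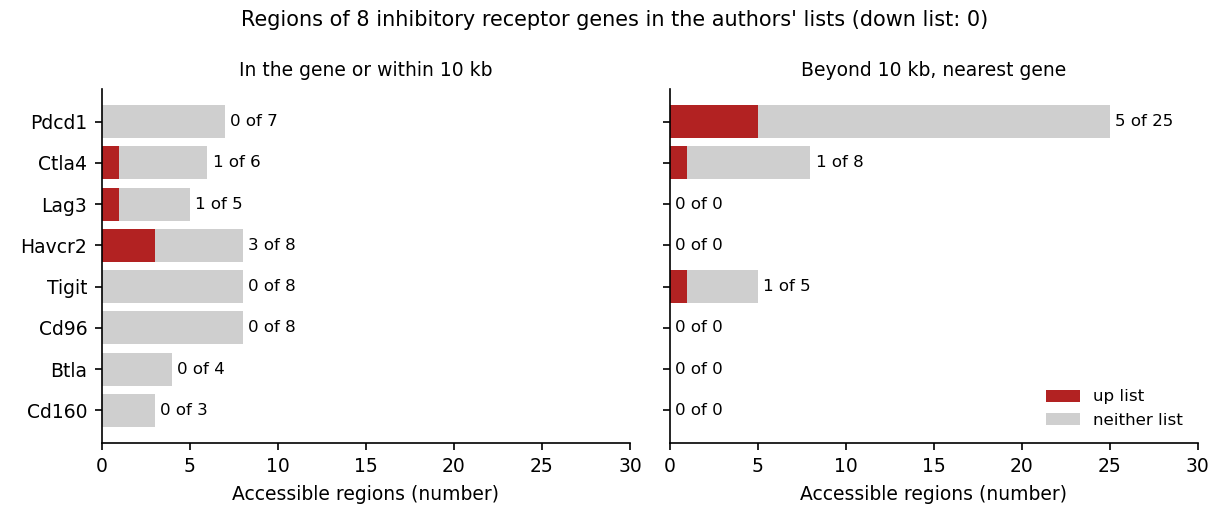
Number of accessible regions (horizontal axis) for each gene, in the gene or within 10 kb (left) and farther away but nearest to that gene (right), with the authors' up list in red and regions in neither list in grey. Up regions lay near Ctla4, Lag3 and Havcr2 and far from Pdcd1, Ctla4 and Tigit, and 5 of the 8 genes had no region beyond 10 kb.

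Havcr2, which encodes TIM-3, had the largest number of up regions within 10 kb. Its span is chr11:46454931-46481255 on build mm10, the build the submitters name. All 3 up regions were inside the gene or across its start, out of 8 regions (37.5%). The up region of 559 bp at chr11:46454554-46455112 covered the start shown above. The up region of 420 bp at chr11:46461886-46462305 lay 6955 bp downstream of the start, and that of 578 bp at chr11:46466790-46467367 lay 11859 bp downstream. All 3 therefore fell in the part of the 26.3 kb gene nearest its start. The 5 unlisted regions included the widest, of 678 bp at chr11:46474054-46474731, and 1 of 283 bp that lay 190 bp from the middle up region. The region outside the gene, 6897 bp past its end, was unlisted. None of the 3 regions between Havcr2 and its upstream neighbour Med7, 12.2 kb away, was listed. Among all genes with a region within 10 kb, 0.749% had 3 or more up regions there. Of the 378 genes with 8 regions within 10 kb, Havcr2 included, 89 had at least 1 up region and 5 had at least 3, and 4 other genes had the same numbers of near, up and down regions as Havcr2. An up region across a start was found in the span of 75 genes, of which 7 had 3 or more up regions in their span.

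**Figure D2:**
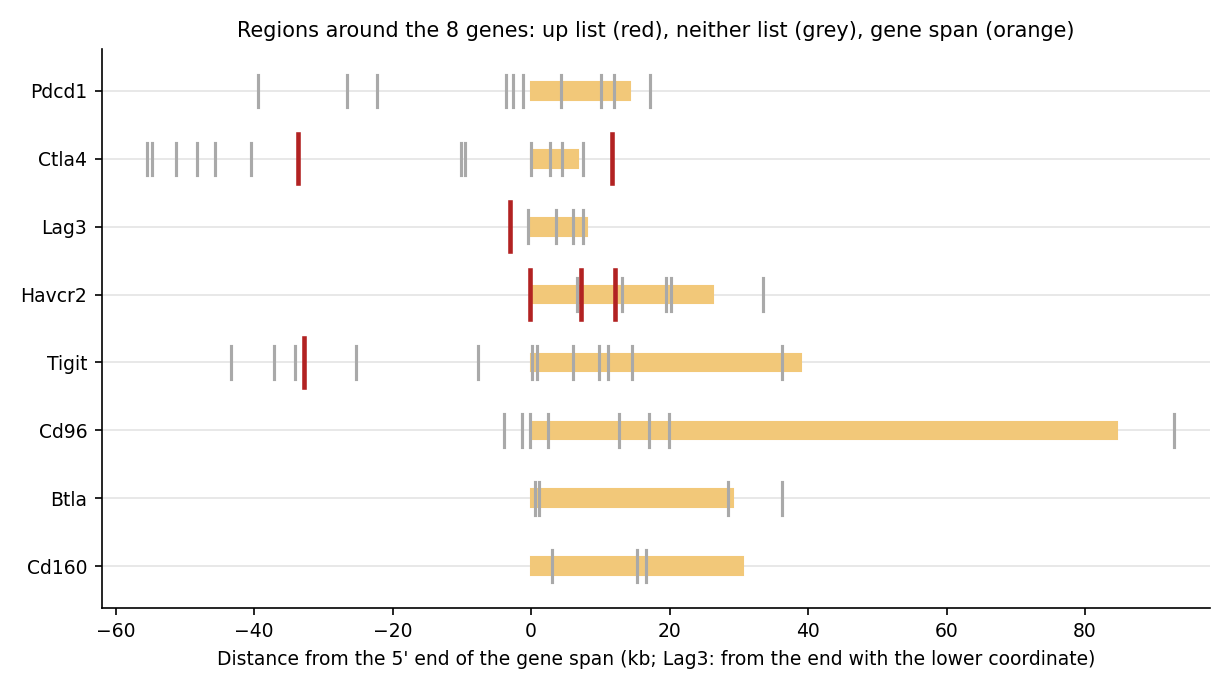
Position of each accessible region (vertical tick) relative to the 5' end of its gene in kb, with the gene span in orange, the up list in red and regions in neither list in grey; Lag3 is drawn from its end with the lower coordinate, and 22 regions of Pdcd1 lie outside the range drawn. The up regions of Havcr2 are in the gene and at its start, while those of Ctla4, Lag3 and Tigit lie outside the genes.

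Lag3 (chr6:124904359-124912434) is a compact gene whose 5 regions all lay in it or within 2861 bp of it. Regions covered 20.7% of its span, the highest share among the 8 genes. The up region of 497 bp at chr6:124901002-124901498 was the farthest of the 5, 2861 bp outside the gene on the side of Cd4. The interval between Lag3 and Cd4 measured 16.1 kb and held 2 regions, both nearest to Lag3, the other of which was unlisted and lay 31 bp from the gene. CD4 is the coreceptor of helper T cells, and 0 regions of the list had Cd4 as their nearest gene, although a region nearest to another gene lay 431 bp from an end of Cd4. The widest region of Lag3, of 730 bp at chr6:124903599-124904328, and the 3 regions inside the gene, of 281 to 708 bp, were unlisted.

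Ctla4 (chr1:60909025-60915832) had 14 regions, of which 6 lay within 10 kb. The region of 459 bp at chr1:60908760-60909218, which covers the start, was unlisted, as were the 2 others inside the gene. The up region within 10 kb, of 390 bp at chr1:60920496-60920885, lay 4664 bp past the end of the gene. The second up region, of 704 bp at chr1:60874996-60875699, lay 33326 bp upstream. The widest region within 10 kb measured 550 bp, at chr1:60916299-60916848, and was unlisted. The limit of 10 kb fell between 2 unlisted regions of Ctla4, 9351 and 10010 bp upstream. Both up regions were close to long noncoding RNA genes. The upstream one lay inside Gm38137, and the downstream one lay 347 bp from Gm34649, so that a rule counting genes of every kind would not give either to Ctla4.

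Ctla4 lies between Cd28 and Icos, which encode costimulatory receptors of the same family. The 3 genes together had 55 regions, of which 4 (7.27%) were up and 5 (9.09%) were down, beside 4.21% and 1.40% of all regions. Ctla4 had 2 up and 0 down regions, Cd28 had 1 up and 3 down of 20, and Icos had 1 up and 2 down of 21. No region between the 2 up regions of Ctla4 was down, but few regions lie there and only 1.40% of all regions were down. The nearest down regions on either side were chr1:60822880-60823279, of 400 bp and assigned to Cd28, and chr1:60990124-60991093, of 970 bp and inside Icos. The up regions of Cd28 and Icos were far from those genes, at 68638 and 202830 bp. Of the 5 down regions, 1 lay inside Cd28, 1 inside Icos, and the others 5346 and 49521 bp from Cd28 and 135190 bp from Icos. Whether the lists differ between these genes beyond the background was not tested.

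**Figure D3:**
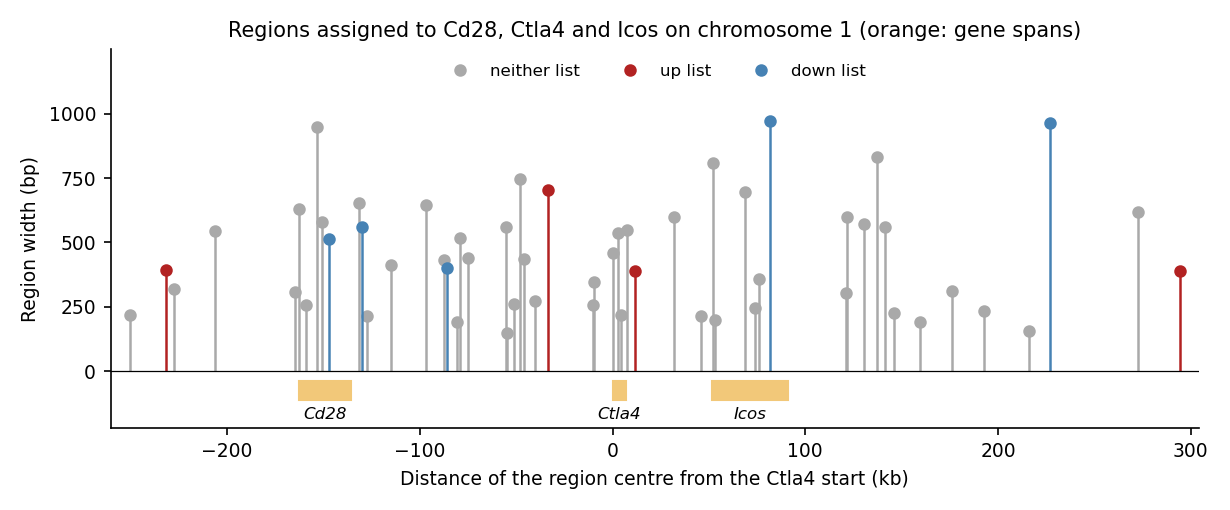
Width in bp (vertical axis) of the 55 regions assigned to Cd28, Ctla4 and Icos against the distance of their centre from the Ctla4 start in kb, with the up list in red, the down list in blue, regions in neither list in grey and gene spans in orange. The 2 up regions of Ctla4 flank the gene, and of the 5 down regions 1 lies inside Cd28, 1 inside Icos and 3 outside the genes.

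Pdcd1 (chr1:94038305-94052553) had the most regions, 32, and none of the 7 within 10 kb was listed. It was the only one of the 7 genes with a matched start in which no region covered a start; Cd160 had a region at its inner start and none at its outer start. The nearest region upstream, of 222 bp at chr1:94053646-94053867, ended 1093 bp from the start. It was followed by regions of 187 and 593 bp at 2496 and 3361 bp upstream. The 3 regions inside the gene measured 237 to 596 bp, and the widest nearby, of 1026 bp at chr1:94034870-94035895, lay 2410 bp past the end of the gene. The window before the start was 60.4% G and C, the highest of the 8 windows, against a median of 52.4% over all windows.

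The 25 far regions of Pdcd1 all lay upstream, in the 1261.1 kb that separate it from Fam174a, the next protein-coding gene. That interval held 40 regions, of which 5 were up and 0 down, and the 5 up regions were among the 28 nearer to Pdcd1. The up regions were chr1:94209759-94210145 (387 bp), chr1:94323295-94323801 (507 bp), chr1:94330958-94331462 (505 bp), chr1:94536944-94537513 (570 bp) and chr1:94581823-94582568 (746 bp). They stood 157.2 to 529.3 kb from the gene. The 6 far regions closer than these, from 21.9 kb upstream onward, were unlisted, including those of 868 and 773 bp at chr1:94074436-94075303 and chr1:94091552-94092324. Of all 25 far regions of Pdcd1, 5 (20%) were up, beside the 6.02% of all regions beyond 10 kb given above. The up regions at 270742 and 278405 bp were 7157 bp apart with no region between them. The assignment to Pdcd1 is by distance alone, and contact between these regions and the gene was not measured. Pseudogenes, a snoRNA and a lncRNA lie in the interval, and each of the 5 up regions was nearer to 1 of the pseudogenes or to the snoRNA than to Pdcd1.

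**Figure D4:**
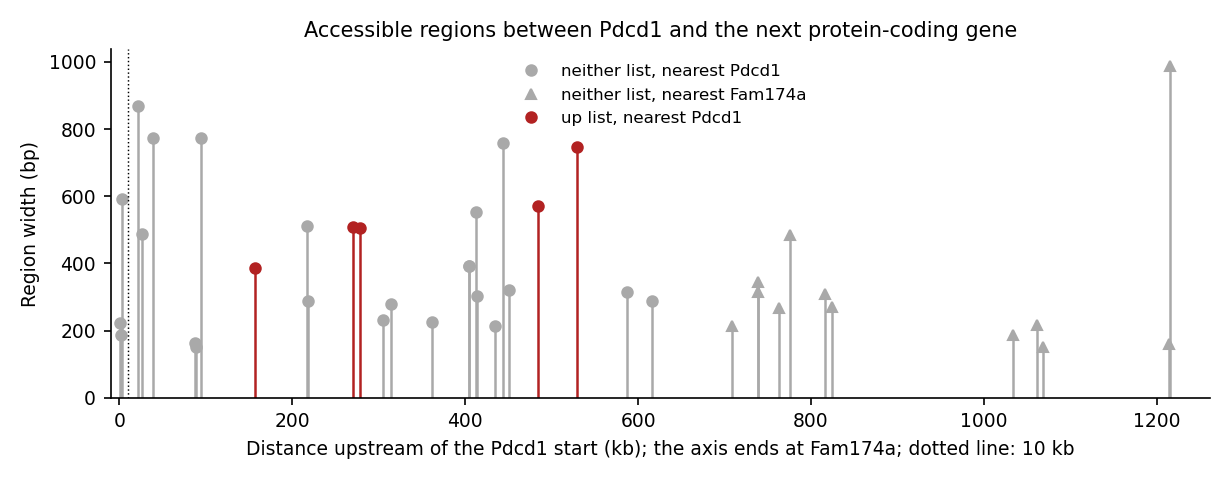
Width in bp (vertical axis) of the 40 regions between Pdcd1 and Fam174a against distance upstream of the Pdcd1 start in kb, with the up list in red and regions in neither list in grey, and with circles for regions nearest Pdcd1 and triangles for those nearest Fam174a. No region left of the dotted line at 10 kb was listed, and the 5 up regions stand between 157.2 and 529.3 kb.

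Tigit (chr16:43626137-43665125) had 8 regions within 10 kb and 5 farther away. The region of 833 bp at chr16:43663818-43664650, which covers the start, was unlisted, and so were the other 7 nearby. The up region, of 297 bp at chr16:43697780-43698076, lay 32655 bp from the gene on the upstream side, in the 88.9 kb between Tigit and Drd3. It was the narrowest of the 12 up regions and lay 593 bp from an unlisted region of 1067 bp at chr16:43698669-43699735. The other end of Tigit overlaps Zbtb20, so that the region of 184 bp at chr16:43628834-43629017 lay in both genes.

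Cd96, Btla and Cd160 had no listed region. Cd96 (chr16:46035652-46120248), the longest of the 8 genes at 84.6 kb, had 8 regions, none farther than 8059 bp. The region across its start, of 1068 bp at chr16:46119816-46120883, was its widest, and 2 more lay 1195 and 3778 bp upstream of the start. All 5 regions in the gene or across its start began within 19.7 kb of the start, and regions covered 2.37% of its span, the lowest share of the 8.

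Btla (chr16:45223705-45252895) had 4 regions. The region of 419 bp at chr16:45223990-45224408 covered the start, a second of 544 bp followed 166 bp downstream of the start, at chr16:45224503-45225046, and the remaining 2 lay near the other end of the gene. Cd160 (chr3:96798763-96829351) had 3 regions, all in the gene. The region of 1640 bp at chr3:96813184-96814823 was the widest of all 87 and covered the inner start. No region covered the outer start at the gene's end, and the nearest, of 247 bp at chr3:96826244-96826490, was 2861 bp away.

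Widths were described without a test. The median was 506 bp over the 12 up regions (297 to 746 bp), and 402 bp over the 75 unlisted regions of these genes (150 to 1640 bp). In the whole series the medians were 453 bp for up and 392 bp for regions in neither list. For the 7 genes with a matched start, 7 up regions lay upstream of the start, 3 downstream and 1 across it. All 38 far regions were upstream. For Pdcd1 and Tigit no far region could lie downstream, since Neu4 lies 9.97 kb past the end of Pdcd1 and Zbtb20 overlaps that of Tigit.

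Genes that act with these receptors were described in the same way, from a list that is not independent of earlier results. The 29 genes had 239 regions within 10 kb, of which 3 (1.26%) were up and 9 (3.77%) were down. The activating or costimulatory counterparts had 0 up and 5 down regions of 43. The down regions were not particular to this group, since the 10 NK cell marker genes examined below had 1 up and 8 down regions of 94, beside 1.30% down among all regions within 10 kb. The 5 down regions of the counterparts were 2 of Cd226, the receptor that competes with TIGIT and CD96 for CD155, 2 of Cd28 and 1 of Icos. Cd244a and Crtam, also receptors of NK cells, had none. Among 6 signalling genes, 4 of 86 regions were down, 3 of them in Fyn, which encodes a Src family kinase, and 1 near Sh2d1a, which encodes the adaptor SAP. Ptpn6, Ptpn11 and Inpp5d, which encode phosphatases recruited by inhibitory receptors, had 0 listed of 4, 4 and 21 regions within 10 kb. At any distance, 1 of the 8 regions of Ptpn11 was up, and Fyn had 1 up and 4 down of 58. Among 6 other inhibitory receptors, 2 of 54 regions were up, both inside Vsir, which encodes VISTA, at chr10:60391019-60391314 and chr10:60395563-60396318. Among 12 ligand genes, 1 of 56 regions was up, inside Cd86, a ligand of CTLA-4 and CD28. The regions within 10 kb of Cd274, Pdcd1lg2, Pvr, Nectin2, Lgals9 and Tnfrsf14 were in neither list.

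**Figure D5:**
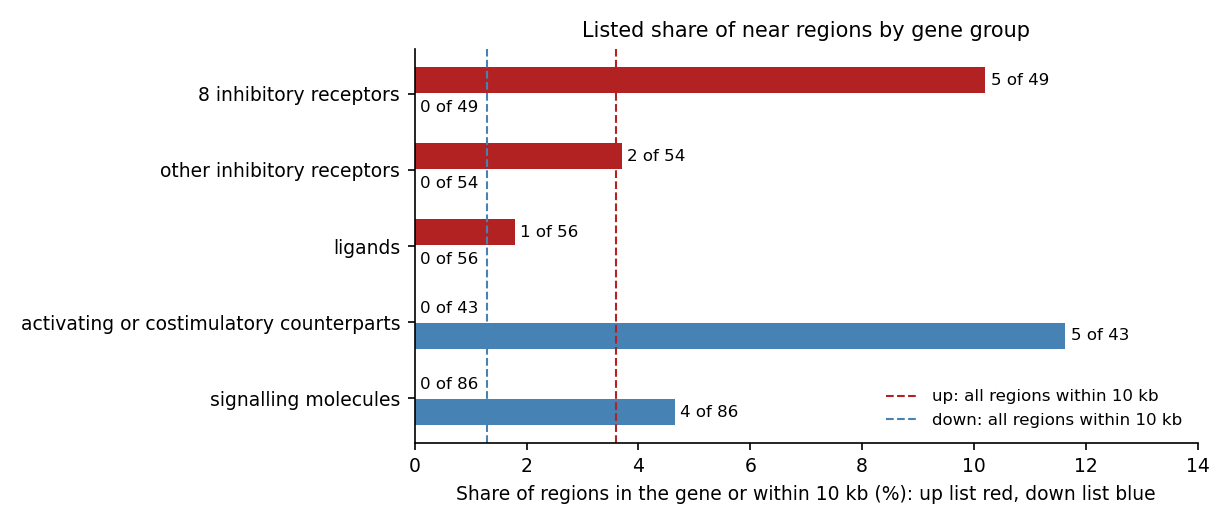
Share in percent of regions in the gene or within 10 kb that are in the up list (red bars) or the down list (blue bars), by gene group, with counts beside the bars and dashed lines at the share of all regions within 10 kb of a gene (3.60% up, 1.30% down). The 8 receptors had 5 up and 0 down of 49, and the activating or costimulatory counterparts 0 up and 5 down of 43.

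The labelled cell type was set beside marker genes, with an accessible region within 1 kb of a gene end as the measure. All 10 NK cell markers had one, among them Ncr1, Klrb1c and Eomes. A region within 1 kb was also found at 4 of 7 T cell markers (Cd3e, Cd3d, Cd4 and Cd5, but not Cd3g, Cd8a or Cd8b1), 2 of 6 B cell markers and 1 of 6 myeloid markers. The share of all protein-coding genes with such a region was not computed, so these counts have no background beside them. Of the 94 regions within 10 kb of the NK cell markers, 8 were in the down list, 4 of them at Ncr1, 2 at Klrb1c and 1 each at Itga2 and Il2rb, and 1, at Itga2, was in the up list. Within 10 kb, the T cell markers had 10 regions and the myeloid markers 4, none of them listed. Open chromatin at a gene does not show that it is expressed, and the part of these markers, or of other cells, in the listed regions of the 8 genes was not tested.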

How the data were processed

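The authors' deposited tables are a list of accessible regions (chromosome, start, end, width in bp) and the positions of the regions they found to differ, in a list called up and a list called down. The submitters' processing notes name BWA, ArchR, MACS2 and HOMER 4.11.1 and the build mm10. Which tool made which list, the thresholds, and whether replicates were pooled are not given in the sources used here. The labels do not say whether the replicates came from separate animals.

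Starts in the full list are 0-based and were raised by 1, after which every listed region was identical to a region of the full list. All coordinates are 1-based. Each region was given to the nearest of 21883 protein-coding genes of a RefSeq table (GRCm38.p6, the same primary assembly as mm10) by distance to the gene's span, ties going to the nearer end. Distances are from region edge to span. Exons and introns were not annotated here. Start sites and promoter windows are RefSeq's and carry strand. Width classes are 10 classes of near-equal size. Shares of all regions or genes serve as background, and no test was made, because the tables hold 0 columns of values per sample. The assignment was tested on simulated regions at known distances. Python 3.11.15, pandas 2.3.3 and matplotlib 3.10.9 were used. All 8 genes are described, with every listed region, the region nearest the start and the widest within 10 kb. The genes, gene lists, motifs and alternatives were chosen with earlier results of these data known. The planned search for motifs in the listed regions themselves was not made, since only promoter sequences were used. Some results on cell type markers are not reported here.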

Additional observations from a re-analysis of the deposited data

How the results depend on the processing

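No paired analysis was possible because replicates 1 and 2 of either dose have no values of their own in the tables, and for the same reason no replicate could be left out and no stricter threshold set. For 8 counts, 51 alternatives were run, and 46 stayed within 1.5 times the reported count. These 46 include every alternative for the down counts, where 0 was compared with 0. The number of down regions was 0 in every alternative run. The genes with an up region within 10 kb numbered 3. There were 2 with genes of any biotype or without Havcr2, and 4 with a limit of 50 kb, changes counted as within 1.5 times. Within 10 kb, up regions numbered 5, and 4 to 7 when the nearest gene was taken among genes of any biotype, by region centre or by gene ends, with limits of 5 or 50 kb, or when a region counted for every gene within 10 kb. Counting genes of any biotype lowered the regions of the 8 genes from 87 to 54 and the up regions beyond 10 kb from 7 to 1, since noncoding genes lie nearer to the far regions of Pdcd1 and to those of Ctla4. Leaving out 1 gene, an alternative chosen after seeing the data, gave 2 up regions within 10 kb without Havcr2, and 55 regions and 2 up regions beyond 10 kb without Pdcd1. Depth is unknown, so a region missing from both lists may differ between the doses by an amount these data could not show.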
